A study of Bos taurus with 6 samples.

Results

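The deoxynucleotide supply enzymes are the products of 9 genes, RRM1, RRM2, DUT, TYMS, TK1, SHMT1, SHMT2, MTHFD2 and DCTPP1, each found once by its symbol among the 17663 genes of the deposited table. The members were chosen from the difference between FT and WT cells in the same 6 libraries, so their levels and fold changes in this contrast are a description and carry no test. The libraries came from bEFs, bovine fetal fibroblasts in primary culture, grown from body tissue of cattle fetuses aged 50 to 60 days. FT cells came from 3 fetuses transgenic for fat-1, a desaturase gene whose enzyme makes n-3 out of n-6 polyunsaturated fatty acids, and WT cells from 3 wild-type Luxi fetuses. The libraries carry the names that the paper gives the fetuses, FT_1 to FT_3 and WT_1 to WT_3. Each poly(A) library was therefore taken to come from 1 fetus (n = 3 per group), which the sample titles do not state. The total count of a library lay between 48167642 (FT_2) and 69777641 (WT_1). The promoter that drives the transgene and the breed of the FT fetuses are not given in the sources used here, so breed and transgene cannot be told apart.

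A cell that copies its DNA needs a balanced supply of the deoxynucleoside triphosphates. Ribonucleotide reductase, built from RRM1 and RRM2, makes deoxyribonucleotides from ribonucleotides, and dUTPase (DUT) breaks dUTP down to dUMP, which thymidylate synthase (TYMS) turns into dTMP with a methylene group carried by folate. Serine feeds this folate pool through SHMT1, SHMT2 and MTHFD2, and in cultured fibroblasts several of these genes are known to be expressed most around S phase.

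The label of the cells was checked against marker genes before the members were described. All 13 fibroblast markers searched for were present, with VIM the most abundant in WT libraries and DCN in FT_1 and FT_2, and their FPKM (fragments scaled by gene length and library total) summed to 8957, 19087 and 18904 in FT_1, FT_2 and FT_3 and to 19038 to 19699 in WT libraries. Single markers went both ways. VIM had 3850 and 4171 in FT_2 and FT_3 and 7312 to 8178 in WT libraries, and DCN 4092 and 3769 against 2054 to 2299. Of the 13 markers, 10 were lower and 3 higher in FT_1 than in the mean of FT_2 and FT_3. POSTN, 1 of those higher, had 212.3 in FT_1 and 34.02 to 39.59 elsewhere. Sums were at most 1.52 for 5 endothelial markers and at most 3.34 for the 4 haematopoietic markers in the table. The 3 skeletal muscle markers summed to 3.82 to 5.77 in FT, mostly DES, and to 1.13 to 1.93 in WT libraries, mostly MYF5, and the 2 neural markers to 5.83 to 14.95 in FT and 11.85 to 13.15 in WT libraries. FT_1 stood apart from the other FT libraries. Of 13443 genes, 11.1% were over 2-fold higher and 11.7% over 2-fold lower in FT_1 than in the mean of FT_2 and FT_3, as CPM (counts scaled to a common library total) with TMM scaling, whereas FT_2 differed from FT_3 by that much in 3.06% and 2.66% of 13347 genes. The FPKM of 6 epithelial markers summed to 142.1 in FT_1 but to 11.9 and 13.02 in FT_2 and FT_3 and 7.92 to 14.2 in WT libraries. KRT8, the most abundant of them in FT_1, had 84.14 there, at most 0.95 in the other FT libraries and 0 in each WT library, and EPCAM had 0.57 in FT_1 and was listed at 0 in the other libraries. CDH1 was the most abundant of them elsewhere (7.11 to 13.86, and 36.32 in FT_1), and CLDN4 was higher in all FT libraries alike, at 3.39 to 3.82 against 0.09 to 0.33 in WT libraries. The 4 smooth muscle markers summed to 2272, 3483 and 3353 in FT_1, FT_2 and FT_3 and to 1066 to 1190 in WT libraries. The part of these differences in the levels of the 9 members was not tested, and the log2 fold changes of the members are given with and without FT_1. In RNA from whole cultures, fewer cells of a type and less RNA per cell cannot be told apart.

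The supply enzymes were mostly lower in FT cells. DUT differed most, followed by RRM2, TYMS, TK1 and RRM1. SHMT2, MTHFD2 and DCTPP1 differed less and depended on FT_1, DCTPP1 also on single WT libraries, and SHMT1 was near the limit of detection in both groups. Counts were compared with edgeR's quasi-likelihood test, and a gene was called at a Benjamini-Hochberg adjusted p under 0.05. All 9 members passed the filter on low counts, and 5 of them were called lower (RRM1, RRM2, DUT, TYMS and TK1), where 18.9% of the 13482 genes tested were called lower and 20.1% higher. Without FT_1, which left only FT_2 and FT_3 in that group, 8 of the 9 were called lower, SHMT2 being the exception. In that fit 31.5% of 13765 genes were called lower and 30.6% higher. FT_2 and FT_3 were the most alike pair within a group, with a mean chi-square per gene of 11.7. Pairs with FT_1 had 763 and 822, and WT pairs 20.2 to 36.1. Standard errors without FT_1 therefore leave out the distance of FT_1 from this pair. SHMT1, among the 8, had 4 and 0 counts in FT_2 and FT_3. Leaving out FT_2 or any 1 WT library gave 4 members called lower. Among all genes, 1531 (without WT_1) to 1963 (without FT_2) were called lower in these fits, and 1516 to 2122 higher. Each of these fits tested more than 13482 genes. Every FT value lay below every WT value in FPKM for 7 of the 9 members and for 36.9% of all genes tested, and the values of FT_2 and FT_3 lay below every WT value for 9 of the 9 and for 47.6% of all genes. MTHFD2, 1 of the 7, overlapped in CPM with TMM scaling. Since the same contrast selected the members, nothing is read from these counts. The median log2 fold change of the members was -1.04, beside 0.03 for all genes tested, and without FT_1 it was -0.89 beside -0.02. Scaling moved the background, because 2714 genes were called higher and 2547 lower with TMM factors but 2049 higher and 3394 lower with library totals alone, where the median of all genes was -0.12 and that of the members -1.20.

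**Figure D1:**
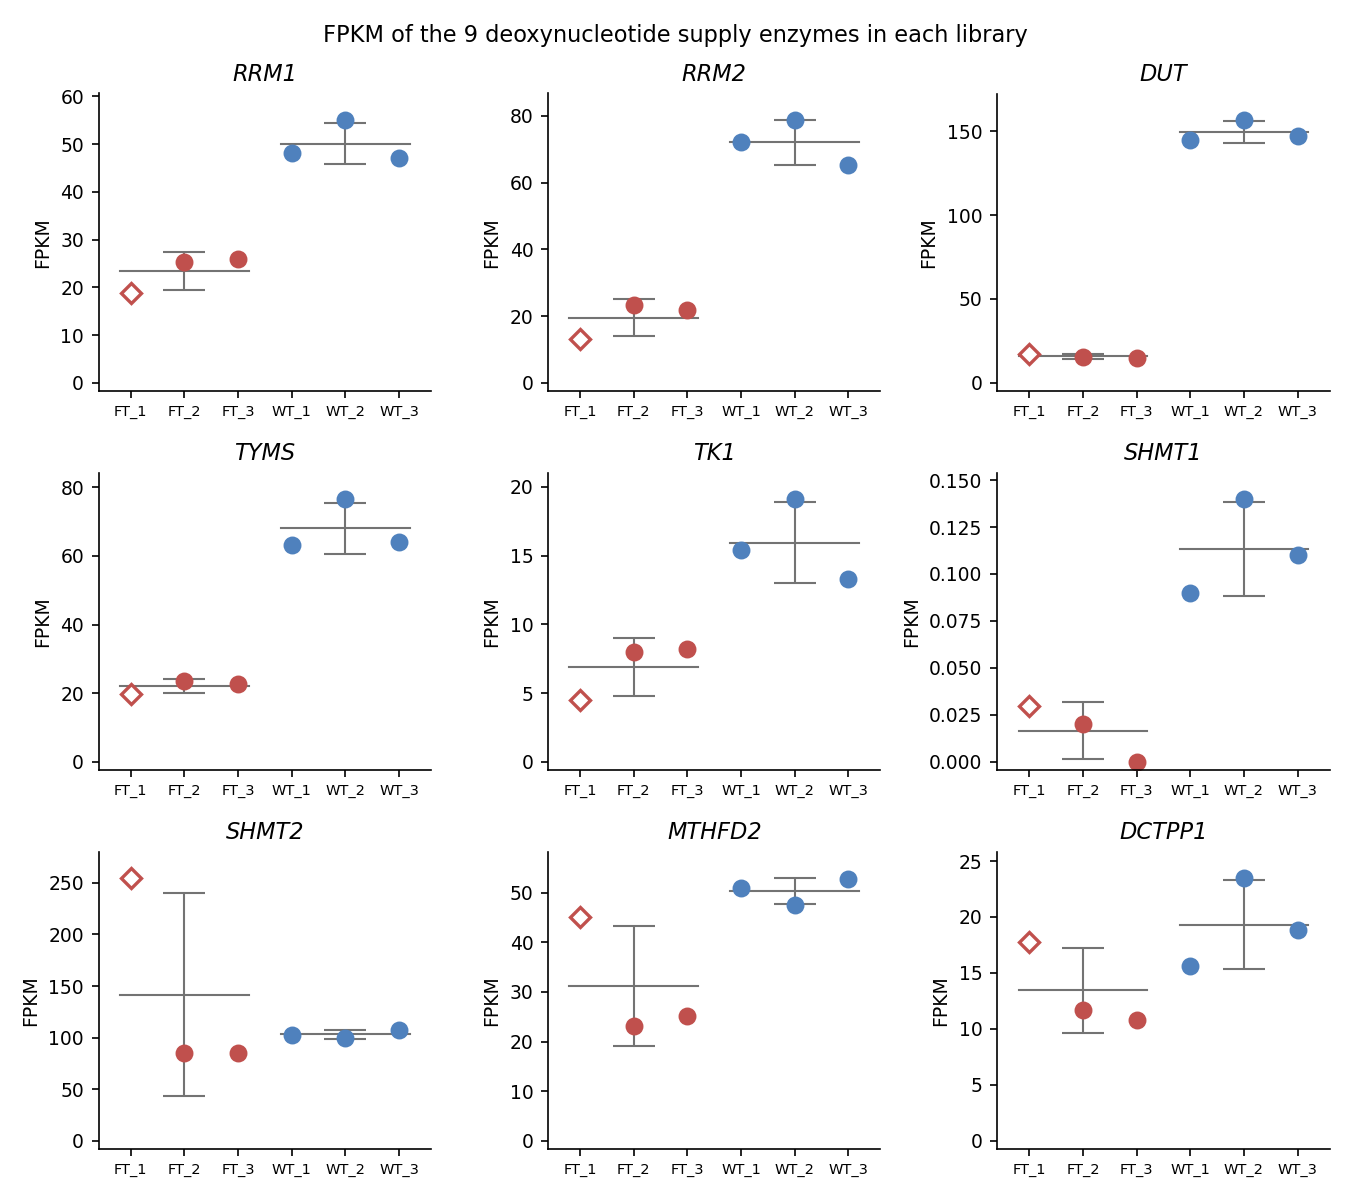
FPKM of each member (vertical axis, linear from 0) in the 6 libraries, with FT in red, WT in blue and FT_1 as an open diamond; horizontal lines are group means and bars are SD (n = 3). DUT had 14.69 to 17.39 in FT cells and 144.62 to 156.72 in WT cells, and FT_1 stands highest of all libraries for SHMT2, at 254.8.

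RRM1 and RRM2 encode the large and the small subunit of ribonucleotide reductase. RRM1 (ENSBTAG00000013111, chromosome 15, 50969950 to 51010523 on the minus strand in the authors' table, whose cattle build is not named in the sources used here) had an FPKM of 18.77, 25.37 and 26.0 in FT_1, FT_2 and FT_3 and of 48.07, 55.09 and 47.18 in WT_1, WT_2 and WT_3. Each FT library was below each WT library, and FT_1 was the lowest of all. The mean was 23.4 ± 4.005 for FT and 50.1 ± 4.33 for WT cells (SD, n = 3), and the counts ran from 4010 to 4748 and from 8576 to 11241. The log2 fold change fitted to the counts was -0.94 (standard error, SE, 0.16), and -0.79 (SE 0.08) without FT_1.

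RRM2 (ENSBTAG00000008216, chromosome 11, 87488674 to 87495961, minus strand), the subunit that carries the tyrosyl radical and limits the enzyme through the cell cycle, had an FPKM of 13.21, 23.36 and 21.94 in FT_1, FT_2 and FT_3 and of 72.15, 78.77 and 65.25 in WT_1, WT_2 and WT_3. The groups were far apart, and FT_1 was again the lowest. The counts behind these values were 2662 to 3778 for FT and 11187 to 15914 for WT cells. Its log2 fold change was -1.72 (SE 0.24), a fitted level 3.30 times as high in WT as in FT cells, and -1.499 (SE 0.09) without FT_1. The subunits were thus lower in FT cells by unequal amounts, and the ratio of RRM2 to RRM1 in FPKM was 0.704, 0.921 and 0.844 in the FT libraries and 1.501, 1.43 and 1.38 in the WT libraries, with no overlap. RRM2 was the more abundant transcript per length in each WT library and RRM1 in each FT library. The alternative small subunit RRM2B, a p53 target that serves resting cells, went the other way, at 2.24 to 2.36 FPKM in FT against 1.40 to 1.79 in WT libraries. It rose by 0.74 on the log2 scale (SE 0.20, adjusted p = 0.0303 in edgeR) and kept its direction under each alternative, but was not called with library totals alone (adjusted p = 0.0595), with limma on unfiltered FPKM values (0.0526), with the replicate number as a block (0.0855) or in 4 of the 6 fits that left out a replicate (FT_2, FT_3, WT_1 or WT_2), where the adjusted p reached 0.117 without WT_1. The ratio of RRM2 to RRM2B was 5.74, 10.4 and 9.30 in FT cells and 50.8, 56.3 and 36.5 in WT cells, so RRM2 remained the more abundant of these small subunits in each library.

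DUT, TYMS and TK1 supply thymidylate. DUT (ENSBTAG00000011998, chromosome 10, 62059579 to 62071091, minus strand), which hydrolyses dUTP and so keeps uracil out of DNA, had an FPKM of 17.39, 15.34 and 14.69 in FT_1, FT_2 and FT_3, against 144.62, 156.72 and 147.17 in WT_1, WT_2 and WT_3. The libraries of each group lay close together and the groups were wide apart, and FT_1 was like the other FT libraries. The counts were 684 to 1020 in FT cells and 7341 to 9279 in WT cells. The log2 fold change was -3.08 (SE 0.09), a fitted level 8.47 times as high in WT cells, and was -3.14 (SE 0.08) without FT_1. DUT had the smallest standard error of the 9 members in the fit to all 6 libraries.

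TYMS (ENSBTAG00000007003, chromosome 24, 35553464 to 35564144, plus strand), which makes dTMP from dUMP, had an FPKM of 19.79, 23.65 and 22.75 in the 3 FT libraries and of 63.24, 76.65 and 64.12 in the 3 WT libraries. FT_1 was slightly below FT_2 and FT_3, and all FT libraries were far below the WT libraries. TYMS had 1937 to 2138 counts in the FT and 5889 to 7474 in the WT libraries. The log2 fold change was -1.46 (SE 0.12), and -1.38 (SE 0.09) without FT_1. DUT makes the substrate of TYMS, and the ratio of DUT to TYMS in FPKM was 0.879, 0.649 and 0.646 in FT cells and 2.29, 2.05 and 2.30 in WT cells. DUT was thus above TYMS in each WT library and below it in each FT library.

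TK1 (ENSBTAG00000007121, chromosome 19, 53977498 to 53991174, plus strand), the cytosolic kinase that makes dTMP from salvaged thymidine, had lower levels than TYMS. Its FPKM was 4.49, 8.03 and 8.20 in FT_1, FT_2 and FT_3 and 15.45, 19.14 and 13.29 in WT_1, WT_2 and WT_3. The groups did not overlap, but the distance from FT_3 to WT_3 was less than the spread of the WT libraries. With 605 to 941 counts in the FT and 1519 to 2271 in the WT libraries, counting noise was small beside that spread. The log2 fold change of -1.04 (SE 0.28) became -0.80 (SE 0.14) without FT_1. The ratio of TYMS to TK1, the synthesis and the salvage route to dTMP, was 4.41, 2.94 and 2.77 in FT cells and 4.09, 4.005 and 4.83 in WT cells. Here the groups overlapped through FT_1.

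SHMT2 and MTHFD2 are mitochondrial enzymes that take a carbon unit from serine and pass it on through folate, and SHMT1 is the cytosolic counterpart of SHMT2. SHMT2 (ENSBTAG00000031500, chromosome 5, 56208141 to 56213412, minus strand) had an FPKM of 254.8, 84.96 and 85.4 in FT_1, FT_2 and FT_3 and of 102.25, 99.54 and 107.72 in WT_1, WT_2 and WT_3. FT_1 was far above all other libraries, whereas FT_2 and FT_3 were nearly equal and somewhat below each WT library. The direction of its log2 fold change therefore rested on 1 library, being 0.61 (SE 0.44) with FT_1 and -0.11 (SE 0.06) without it. The end of SHMT2 overlaps the end of NDUFA4L2 (56205859 to 56208161, plus strand), and since the use of strand in the counting is not stated, reads in the shared stretch cannot be assigned. NDUFA4L2 had 174 to 1154 counts a library, against 8838 to 34946 for SHMT2, and its FPKM was also highest in FT_1, at 17.83. No other member overlapped a gene of the table.

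MTHFD2 (ENSBTAG00000004881, chromosome 11, 10424409 to 10446337, minus strand), a dehydrogenase and cyclohydrolase of folate that is high in embryonic and dividing cells, had an FPKM of 45.08, 23.1 and 25.23 in FT_1, FT_2 and FT_3 and of 50.88, 47.43 and 52.63 in WT_1, WT_2 and WT_3. In FPKM, FT_1 came close to the lowest WT library, and FT_2 and FT_3 were far below it. In CPM with TMM scaling, FT_1 (82.3) was above WT_2 (79.0). The log2 fold change was -0.54 (SE 0.25) with FT_1 and -0.89 (SE 0.08) without it. The ratio of SHMT2 to MTHFD2 in FPKM was 5.65, 3.68 and 3.39 in FT cells and 2.01, 2.10 and 2.05 in WT cells, so it was higher in each FT library, FT_1 included, than in any WT library. MTHFD2 counts were 1961 to 5044 in the FT and 4276 to 6231 in the WT libraries, the highest FT count again being that of FT_1.

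SHMT1 (ENSBTAG00000017094, chromosome 19, 34334364 to 34350038, plus strand) had 6, 4 and 0 counts in FT_1, FT_2 and FT_3 and 21, 23 and 19 counts in WT_1, WT_2 and WT_3. It was barely detected in any library, and the 0 in FT_3 allows up to 0.0553 CPM (3 counts of the total). Summed over a group, it had 10 counts in FT cells, or 0.0603 CPM with an exact 95% Poisson interval of 0.0289 to 0.111, and 63 in WT cells, or 0.359 with an interval of 0.276 to 0.460. These intervals cover counting error only. The FPKM reached 0.03 in FT and 0.14 in WT cells, and the fitted log2 fold change, -2.43, had a standard error of 0.91. Without FT_1 the log2 fold change was -2.97 (SE 1.02). In both groups, nearly all serine hydroxymethyltransferase transcript was therefore that of SHMT2.

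DCTPP1 (ENSBTAG00000039962, chromosome 25, 26595524 to 26599199, minus strand) encodes a pyrophosphatase that removes dCTP and its modified forms from the pool. Its FPKM was 17.8, 11.72 and 10.8 in FT_1, FT_2 and FT_3 and 15.61, 23.5 and 18.87 in WT_1, WT_2 and WT_3. The groups overlapped, because FT_1 was above WT_1, and FT_2 and FT_3 were below each WT library. DCTPP1 had 440 to 880 counts in the FT and 794 to 936 in the WT libraries, the fewest after SHMT1 in WT cells. The log2 fold change was -0.37 (SE 0.24) with FT_1 and -0.61 (SE 0.17) without it. It was -0.51 (SE 0.26) without WT_1 and -0.21 (SE 0.26) without WT_2.

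**Figure D2:**
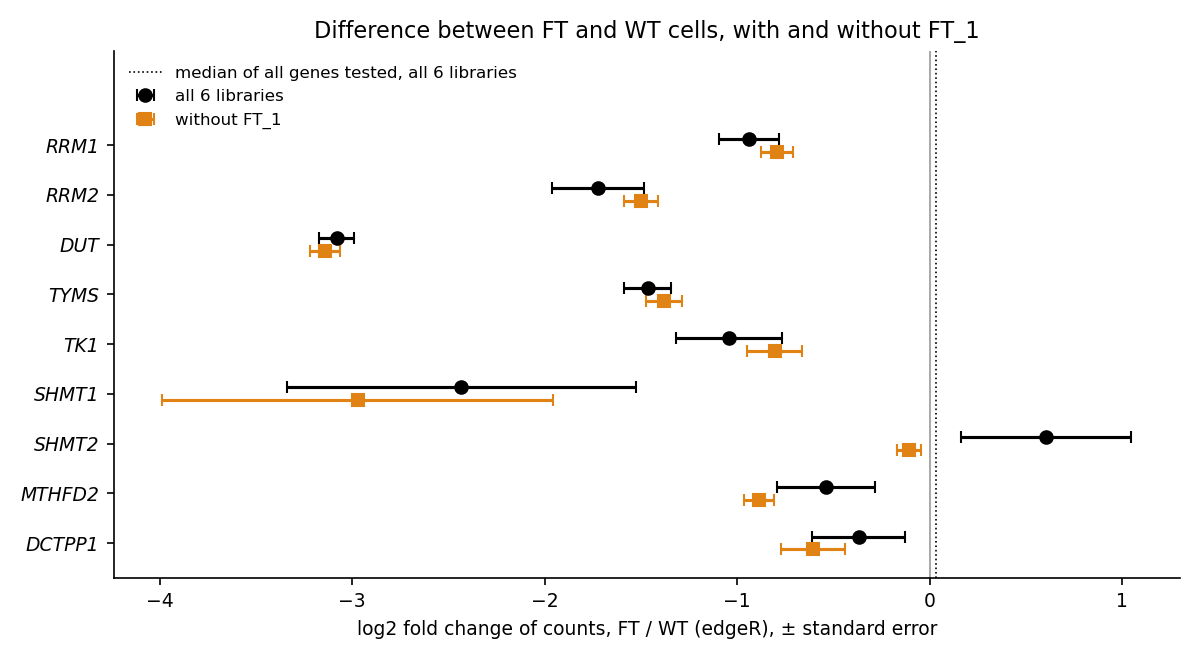
Log2 fold change of FT over WT counts (horizontal axis) for each member, with all 6 libraries (black circles) and without FT_1 (orange squares); bars are standard errors and the dotted line is the median of all genes tested, 0.03. DUT is farthest to the left with a short bar, SHMT1 has the widest bars, and SHMT2 is the member that lies on the other side of 0 when FT_1 is left out.

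The order of the members by FPKM differed between the groups. In WT cells DUT was highest (149.5 ± 6.38), followed by SHMT2 (103.2 ± 4.17), then RRM2 (72.1 ± 6.76) and TYMS (68.0 ± 7.50), which overlapped, MTHFD2 (50.3 ± 2.65) and RRM1, which overlapped, DCTPP1 (19.3 ± 3.96) and TK1 (16.0 ± 2.96), which overlapped, and SHMT1 far below (mean ± SD, n = 3, overlap being that of the ranges). In FT cells SHMT2 was highest and separate from the rest, with a mean of 141.7 ± 97.9 that FT_1 set. MTHFD2, RRM1, TYMS, RRM2, DUT and DCTPP1 followed with means from 31.1 down to 13.4, each overlapping the next, and TK1 (6.91 ± 2.09) and SHMT1 were below them. DUT was therefore the first of 9 in WT cells and the sixth in FT cells. Without FT_1, the FT order began with SHMT2 (mean 85.2), RRM1 (25.7), MTHFD2 (24.2), TYMS (23.2), RRM2 (22.6) and DUT (15.0), and DUT still came sixth.

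FT_1 differed from the other FT libraries in both directions among the members. Relative to the mean of FT_2 and FT_3 in CPM, FT_1 had 0.540 times the level of TK1, 0.568 times that of RRM2, 0.711 times that of RRM1 and 0.831 times that of TYMS. It had 2.91 times the level of SHMT2, 1.82 times that of MTHFD2 and 1.54 times that of DCTPP1, whereas DUT was at 1.13 times, and SHMT1 had too few counts for such a ratio. The reductase subunits, TYMS and TK1 were thus lower in FT_1 than in the other FT libraries, and the mitochondrial folate enzymes and DCTPP1 were higher. Markers of dividing cells were lower in FT_1 as well, in 19 of 21 S phase genes and 11 of 12 G2/M genes. The share of all genes that were lower in FT_1 by any amount was not counted. The serine synthesis gene PHGDH was higher, with an FPKM of 287.61 in FT_1 but of 86.68 and 82.48 in FT_2 and FT_3 and 185.76 to 208.16 in WT libraries, and so was MYC, with 95.48 in FT_1 but 16.07 and 16.27 in FT_2 and FT_3 and 18.87 to 23.91 in WT libraries. With all libraries neither was called (adjusted p = 0.767 and 0.243 in edgeR). Without FT_1, PHGDH was called lower (log2 difference -1.03, adjusted p = 1.92e-06 in edgeR) and MYC was still not called (-0.19, adjusted p = 0.143). The part of these differences, or of the epithelial markers of FT_1, in the place of FT_1 among the members was not tested.

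**Figure D3:**
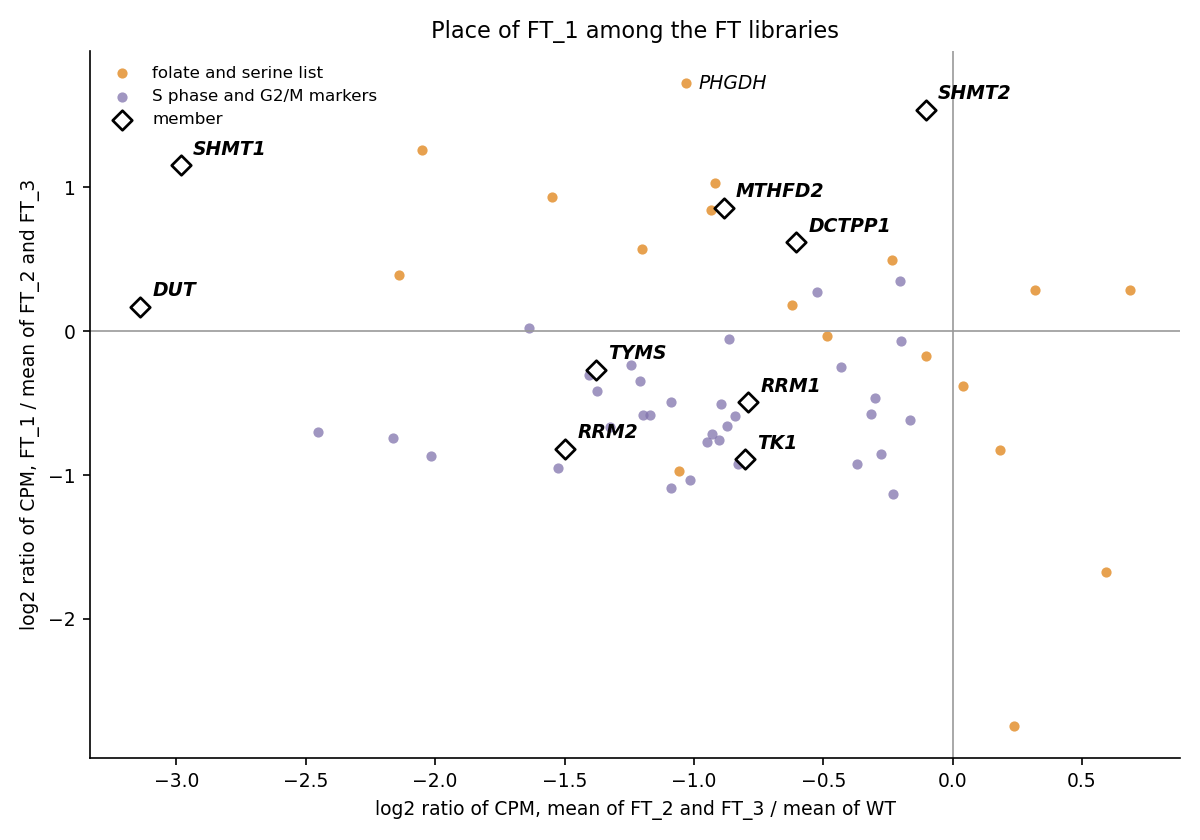
Log2 ratio of CPM of FT_1 to the mean of FT_2 and FT_3 (vertical axis) against the log2 ratio of the mean of FT_2 and FT_3 to the mean of WT (horizontal axis), for the members (open diamonds), the other folate and serine genes (orange) and the S phase and G2/M markers (purple). SHMT2, SHMT1 (from 6, 4 and 0 counts in FT_1, FT_2 and FT_3), MTHFD2, DCTPP1 and DUT lie above the horizontal line. RRM1, RRM2, TYMS and TK1 lie below it, where most of the purple points lie.

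The members share pathways in the annotation of the deposited table. DUT, TYMS, TK1, RRM1, RRM2 and DCTPP1, 6 of the 9, carry the KEGG term pyrimidine metabolism, and 4 (TYMS, SHMT1, SHMT2 and MTHFD2) the folate carbon pool, with TYMS in both. They are spread over 7 chromosomes. Of the 39 other tested genes of the pyrimidine term, 10 were called lower and 7 higher, with a median log2 fold change of -0.07, and of the 12 other tested genes of the folate term 5 were called lower, with a median of -0.53. Leaving out FT_1 gave 19 lower and 8 higher with a median of -0.29 for the pyrimidine term, and 7 lower and 1 higher with a median of -0.52 for the folate term. Over all genes tested, 18.9% were called lower and 20.1% higher, and without FT_1 31.5% and 30.6%. These shares are the background for the counts of both terms and of each list below, none of which was tested against them.

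Other genes of deoxynucleotide synthesis, which the choice of members did not name, were called lower in 6 and higher in 3 of 16 cases (RRM2B, NME3 and NME4, each of which lost the call in 2 or more of the fits that left out a replicate, with adjusted p up to 0.126 for NME3 and 0.0711 for NME4 without WT_1, and NME3 also with library totals, with the replicate block and in each limma fit), with a median log2 fold change of -0.57 (10 lower and 3 higher without FT_1, median -0.58). DTYMK, the kinase that acts on the dTMP made by TYMS and TK1, fell from an FPKM of 7.27 to 8.86 in WT libraries to 1.88 to 2.57 in FT libraries (log2 difference -1.71, SE 0.17, adjusted p = 0.00135 in edgeR). NME1, a nucleoside diphosphate kinase gene, fell by 3.07 (SE 0.24, adjusted p = 0.00085 in edgeR) and its neighbour and close copy NME2 by 1.26 (SE 0.16, adjusted p = 0.00278 in edgeR). How reads shared by NME1 and NME2 were divided is not stated, so both values are uncertain. TXNRD1, of the thioredoxin system that reduces RRM1, fell by 0.97 (SE 0.10, adjusted p = 0.00137 in edgeR).

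Around SHMT2 and MTHFD2, the list of other folate and serine genes had 7 genes called lower and 2 called higher of 18 tested, with a median of -0.37 (10 and 4 without FT_1, median -0.55). GCSH, of the glycine cleavage system, fell from an FPKM of 12.6 to 13.68 in WT libraries to 2.49 to 3.53 in FT libraries (log2 difference -1.998, SE 0.17, adjusted p = 0.000976 in edgeR). The serine synthesis gene PSPH fell by 1.499 (SE 0.37, adjusted p = 0.0228 in edgeR), a call that was lost in each fit that left out FT_2, FT_3 or a WT library (adjusted p up to 0.0742, without WT_1). MTHFD2L, also called lower, lost the call with the replicate block and without FT_3 or any 1 WT library (adjusted p up to 0.118 in edgeR, without WT_2). GGH lost its lower call when any 1 WT library was left out (adjusted p up to 0.0678 in edgeR, without WT_2). FPGS, which adds glutamate to folates, was 1 of the 2 called higher (adjusted p = 0.0468 in edgeR), but not with library totals, with no filter, with the replicate block, in any limma fit or in 4 of the 6 fits that left out a replicate (adjusted p up to 0.161, without WT_1). The folate carrier SLC19A1 rose by 0.79 on the log2 scale (SE 0.14, adjusted p = 0.00770 in edgeR).

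Markers of dividing cells were lower together with RRM1, RRM2, TYMS and TK1. All 21 S phase genes had a negative log2 fold change and 12 were called lower (median -0.88), and all 12 G2/M genes were called lower (median -1.51). Without FT_1, 15 of 21 and 12 of 12 were called lower. PCNA, the sliding clamp of DNA replication, fell by 1.501 (SE 0.16, adjusted p = 0.00163 in edgeR) and the mitotic cyclin CCNB1 by 2.65 (SE 0.23, adjusted p = 0.00102 in edgeR). The log2 fold changes of RRM1, TK1, TYMS and RRM2, from -0.94 to -1.72, lay within the range of the S phase and G2/M genes, from -0.08 to -2.65, while that of DUT, -3.08, was below all 33 of them. The part of the share of dividing cells in the levels of the members was not tested.

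**Figure D4:**
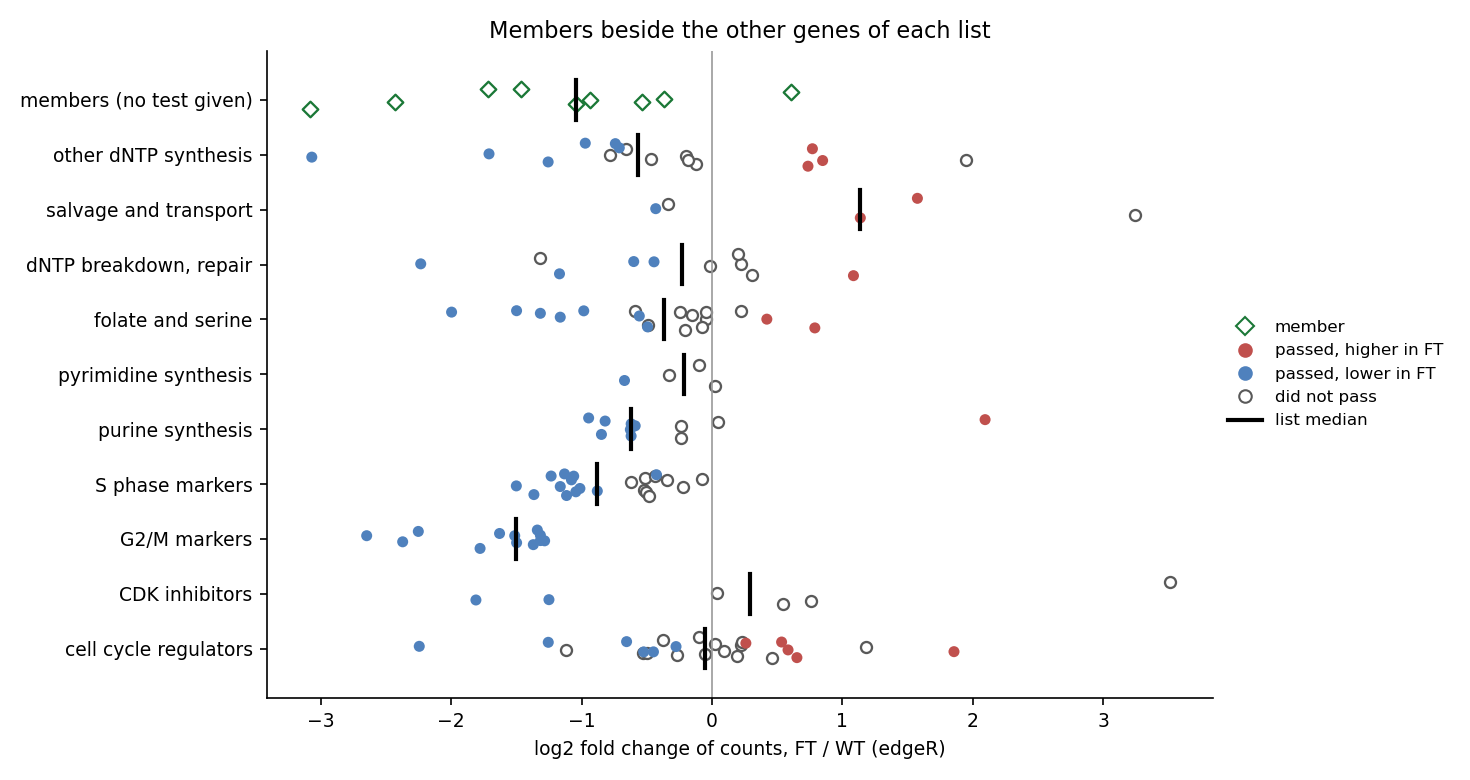
Log2 fold change of FT over WT counts (horizontal axis) for the members (green diamonds, no test given) and the tested genes of each list (circles; red or blue where called higher or lower in FT cells, open where not called); black bars are medians, -1.04 for the members, -0.88 for S phase and -1.51 for G2/M markers. Vertical scatter within a row has no meaning.

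The genes most like RRM2, TYMS and SHMT2 were found by the root mean square difference of centred log2 CPM over the 6 libraries, among 9057 genes. For RRM2 these were RAD51AP1 (difference 0.05) and SKAP2 (0.06). RAD51AP1, a gene of DNA repair by recombination, had an FPKM of 1.88, 3.35 and 3.07 in FT cells and 9.39, 10.89 and 9.04 in WT cells, with FT_1 lowest as for RRM2. For TYMS they were PEG10 (0.03) and ATP5F1B (0.05), the latter with 143.38 to 164.07 in FT cells and 433.18 to 500.14 in WT cells. For SHMT2 they were SMIM3 (0.04) and PARP8 (0.07). SMIM3 shared the high level in FT_1, with 105.91, 35.97 and 35.86 in FT cells and 41.02, 38.65 and 44.68 in WT cells.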

How the data were processed

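RNA-seq libraries of 3 FT and 3 WT cultures were compared. The authors mapped reads with HISAT and estimated levels with StringTie and edgeR. The submitters' processing notes list HISAT2 2.0, StringTie 1.3.0 and Bowtie 0.12.2 without roles, and mm8, a mouse build, although the genes carry Ensembl cattle identifiers. The deposited table holds a raw count per gene and library. The FPKM values deposited beside them are those counts scaled by gene length and library total. How reads of overlapping or copied genes were counted, and whether strand was used, is not stated.

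Here, counts of 13482 genes that passed edgeR's filter were fitted with edgeR 4.0.16 (quasi-likelihood, TMM) in R 4.3.3, with Benjamini-Hochberg adjustment over all of them. limma 3.58.1 on log2(FPKM + 1) or log2(FPKM + 0.1) and DESeq2 1.42.0 were alternatives. The steps were tested on simulated data. The mean chi-square per gene between libraries of a group was at least 11.7, so none was counted as a repeat. Named genes were the 9 members, the called genes of each list with the largest absolute log2 fold changes (up to 4 per direction), 11 listed genes not called with all libraries, and the 2 genes most like RRM2, TYMS and SHMT2 with a mean log2 CPM over 3. The members and lists were chosen with earlier results of these data known. TK2, TYMP, UNG, ALDH1L1, CTPS2, PRPS1, PRPS2 and CDKN2A were not analysed here, the planned promoter motif search was not run, and 1 listed gene, counted in its list, is not reported here. SHMT1, with 73 counts in all, is limited by depth.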

Additional observations from a re-analysis of the deposited data

How the results depend on the processing

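Beside the fit to all 6 libraries, 71 named genes gave 992 values, of which 835 kept their direction and side of the threshold (members and the genes most like them, which have no test, moved by less than their spread) and 16 had the opposite direction, 3 of them in SHMT2, SMIM3 and PARP8 without FT_1. Of 45 named genes called with all libraries outside the members, 21 were not called in 1 or more of the fits that left out a replicate. With the study's threshold (an absolute log2 fold change over 1 at an unadjusted p below 0.05), 2586 genes were called in place of 5261 and 13 of 64 nucleotide and folate pathway genes outside the members in place of 35; a minimum fold and the unadjusted p came in together, and the part of each was not tested. It called 5 members, with SHMT1 in place of RRM1. Leaving out each replicate in turn gave 3047 (without WT_1) to 8552 (without FT_1) genes called, 4 to 8 members, 19 (without WT_1) to 53 (without FT_1) pathway genes and 22 (without WT_2) to 47 (without FT_1) of 64 cell cycle genes, where 37 were called with all libraries, and a median log2 fold change of the members from -1.20 to -0.89; the cause was not tested. In these fits, the log2 fold change ran from -1.03 to 0.082 for PHGDH, -0.19 to 1.57 for MYC, -0.40 to 0.049 for ATF4, -0.61 to 0.094 for E2F1, -0.33 (without FT_1) to 0.021 (without FT_2) for CAD and -0.24 to 0.19 for CDKN1A, none of which was called with all libraries; without FT_1, PHGDH (adjusted p = 1.92e-06), ATF4 (0.00128), CAD (0.00440) and CDKN1A (0.0197) were called lower. CDKN1A, at 0.03 with TMM factors, was -0.11 with library totals, -0.16 in each of 3 limma fits on FPKM (-0.162 with a pseudocount of 1, with or without the filter, -0.164 with 0.1) and -0.0063 with the replicate block. Of the genes called, 51.6% were higher with TMM factors, 37.6% with library totals and 34.0% with limma on log2(FPKM + 1), and of the pathway genes 25.7%, 11.4% and 13.5%. With the replicate block, 3579 genes and 5 members were called. Libraries with the same number deviated from their group means with correlations of -0.02, -0.03 and 0.04. The FT mean includes FT_1, which stood apart, so these correlations cannot exclude a pairing by number. DESeq2 called 5 members and 6230 of the 17663 genes (3251 higher, 2979 lower).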

Other observations

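Genes further from the 9 enzymes were listed as well. As background for these lists, 18.9% of all genes tested were called lower and 20.1% higher (31.5% and 30.6% without FT_1). Among nucleoside salvage genes, 2 were called higher and 1 lower of 5 tested, both rises being in nucleoside transporters. SLC29A2 rose from an FPKM of 0.76 to 0.91 in WT libraries to 1.71 to 3.05 in FT libraries (log2 difference 1.58, SE 0.27, adjusted p = 0.00678 in edgeR), and SLC29A1 rose by 1.14 (SE 0.34, adjusted p = 0.0408 in edgeR), a call lost with library totals (adjusted p = 0.0652), in each of 3 limma fits (0.0760 to 0.111), with the replicate block (0.0676) and when any 1 WT library was left out (up to 0.138, without WT_2). The median of this list was 1.14 with FT_1 and -0.25 without it. Of 10 genes that break down or repair nucleotides, 4 were called lower and 1 higher (median log2 fold change -0.23), and 6 and 2 without FT_1 (median -0.58). PNP, a purine nucleoside phosphorylase, fell from 517.84 to 544.91 FPKM in WT libraries to 79.84 to 144.86 in FT libraries (log2 difference -2.23, SE 0.25, adjusted p = 0.00174 in edgeR), while SAMHD1, which degrades deoxynucleoside triphosphates, was not called (log2 difference 0.22, SE 0.18, adjusted p = 0.349 in edgeR). In purine synthesis 7 of 11 genes were called lower and 1 higher (median -0.62; 9 and 2 without FT_1, median -0.64), and in pyrimidine synthesis 1 of 4 was called lower, UMPS, by -0.68 (SE 0.09, adjusted p = 0.00338 in edgeR; median of the list -0.22). Without FT_1, 3 of these 4 were called lower (median -0.51), UMPS with CAD (adjusted p = 0.00440) and DHODH (0.000865). ADSSL1, a muscle type of adenylosuccinate synthase, was the purine gene that rose, by 2.09 (SE 0.24, adjusted p = 0.00195 in edgeR).

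Of 25 regulators of the cell cycle, 6 were called lower and 5 higher, with a median log2 fold change of -0.05 (8 and 7 without FT_1, median -0.02). E2F5 rose from 4.10 to 5.11 FPKM in WT libraries to 9.97 to 23.38 in FT libraries (log2 difference 1.86, SE 0.36, adjusted p = 0.0102 in edgeR, and adjusted p = 0.0517 without WT_1), and RBL2, a pocket protein known to bind E2F factors in resting cells, rose by 0.58 (SE 0.08, adjusted p = 0.00382 in edgeR). E2F1 was not called, and had an FPKM of 2.11 in FT_1 but of 5.62 and 6.81 in FT_2 and FT_3 and 6.27 to 6.86 in WT libraries. Among 6 inhibitors of cyclin-dependent kinases, 2 were called lower, CDKN2B and CDKN2C, and both lost the call in 4 or more of the fits that left out a replicate (adjusted p up to 0.103 without WT_3 and 0.142 without WT_2), CDKN2C also with no filter and with the replicate block. CDKN1C was not called (adjusted p = 0.0766 in edgeR), with 38.08 in FT_1 and at most 2.37 in any other library. Without FT_1, 3 inhibitors were called lower, CDKN1A among them (adjusted p = 0.0197), and 2 higher, CDKN1C (log2 difference 0.71, adjusted p = 0.0304) and CDKN1B (0.37, adjusted p = 0.00687).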
